A study of Mus musculus with 136 samples.

Results

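Mouse embryonic stem cells carry long stretches of acetylated chromatin, and the 300 strongest of them in wild-type (WT) cells were followed here through their genes, their other histone marks and the Polycomb protein SUZ12. Peaks of histone H3 lysine 27 acetylation (H3K27ac) lying up to 12.5 kb apart were joined, which turned 128247 peaks into 27741 stitched regions. Each region was scored by the sum of peak width times fold enrichment over input, and the 300 regions with the highest score were taken. The members were therefore selected on H3K27ac, and every H3K27ac width, fold and score given for them is a description of that choice.

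All lists came from clones of the E14JU mouse embryonic stem cell line (129/Ola, male), grown on gelatin in serum with leukemia inhibitory factor (LIF) and given no treatment. WT was clone 410. The 2 mutant clones, 439 and 442, carried MCM2-2A, in which the histone-binding domain of the replicative helicase subunit MCM2 is mutated so that parental histones are passed unevenly to the sister chromatids. Histone marks were measured by native chromatin immunoprecipitation and sequencing (ChIP–seq) of MNase-digested chromatin with Drosophila spike-in, in an original experiment (2 WT replicates per mark) and a rescue experiment (3 WT replicates per mark), and SUZ12 by ChIP–seq of crosslinked, sonicated chromatin (3 replicates per clone). Each clone is a single line, so clone and genotype cannot be told apart for WT. The WT H3K27ac list came from the original experiment alone, and every list pooled its replicates, so no value per replicate, no spread between replicates and no test exist for the comparisons below. Shares are given with 95% Wilson confidence intervals, which cover counting error only, and the sequencing depth behind the lists is unknown because they hold no read counts.

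H3K27ac is deposited by the acetyltransferases p300 and CBP at active promoters and enhancers. Clusters of enhancers with very high H3K27ac, Mediator and transcription factor occupancy, known as super-enhancers, lie in stem cells near genes for the factors that hold pluripotency. The members were chosen without Mediator, p300 or transcription factor data, so the term "super-enhancer-like" rests on acetylation alone. SUZ12 belongs to the Polycomb complex PRC2, which writes H3K27me3, a mark that the same lysine cannot carry while acetylated.

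Members spanned from 21 to 357 kb (median 106 kb) and held from 8 to 156 peaks (median 42), with a score from 381 to 2181 fold kb (median 577 fold kb). Together they covered 35.6 Mb of the 289 Mb in stitched regions and held 11.2% of the H3K27ac peaks and 24.9% of the total score. No step separated members from the rest. The last 3 members, at Tmem51, Sp3 and Nucks1/Rab29, scored 382.6, 381.0 and 380.6 fold kb, and the first 3 regions outside scored 380.2, 380.1 and 380.0 fold kb, of which the last lay at Trak1. The curve of ranked scores, with both axes scaled to the same range, reached a slope of 1 only at rank 1404.

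**Figure D1:**
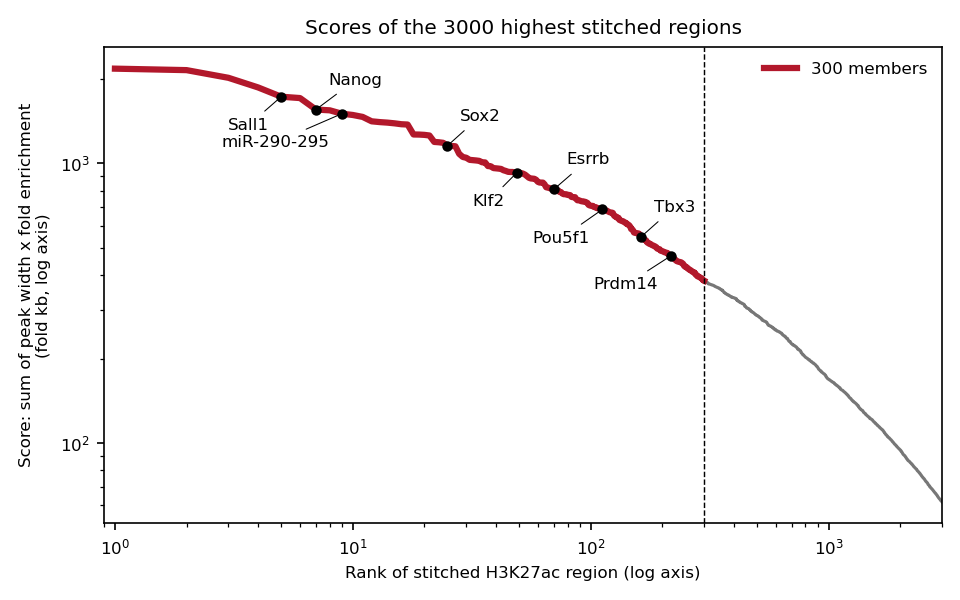
Score of the highest stitched regions (y axis, fold kb, log scale) against rank (x axis, log scale), with the 300 members in red, the dashed line at rank 300 and 9 gene regions as black points. The curve falls without a break at rank 300, from 2181 fold kb at rank 1 to 381 fold kb at the last member.

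The first of the top 20 regions, chr11:19909646-20250131 (mm10), ran over Spred2, an inhibitor of Ras–MAPK signaling, and Actr2, Rab1a and Cep68, with 146 peaks. Rank 2 held Dlgap1 and Tgif1, a repressor of TGF-β/Smad signaling, and rank 3 held Mkrn1, Dennd2a, Rab19 and Slc37a3. Rank 4 held Zfp57, which protects imprinted methylation, with Gabbr1 and neighbors in the major histocompatibility region. Rank 5 held the zinc-finger factor Sall1, rank 6 a histone gene cluster, rank 7 Nanog, Dppa3 and Gdf3, rank 8 the Krüppel-like factor Klf9 and rank 9 the miR-290 microRNA cluster (its members run to miR-295). Rank 10, at the survival gene Mcl1 and Ensa, reached 1490 fold kb with only 17 peaks in 58.4 kb. Ranks 11 to 20 lay at Irf2bpl, Ncoa3/Sulf2, Zfp281/Kif14, Smarcad1, Etl4, Pitpnc1, Tns3, Zfp532, the PRC2 cofactor Jarid2 and the chaperone Hsp90ab1. The widest member, with the most peaks, was at Trim24 (rank 21, 357 kb, 156 peaks). The next by number of peaks was at Msi2 (rank 36, 147 peaks), and Tmem131/Vwa3b (rank 56) was the fifth with 132. Among the highest single peaks, from 66.1-fold to 72.6-fold, were those at Ppp2r5c (rank 32), at Adam23 (rank 264), at Tlr2 (rank 58) and in the Ncor1/Ubb region (rank 26).

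The miR-290 family microRNAs are among the most abundant of mouse embryonic stem cells and act in their cell cycle through shared seeds, bases 2 to 8 of the mature strand, which pair with target transcripts. RefSeq (GRCm38.p6) placed 9 hairpins and 17 mature strands on a stretch of 2.2 kb in the region chr7:3161930-3315978, and the mature strands fell into 11 seeds. Of 1738 mature strands in the RefSeq table, 5 shared the seed of the first 3 strands below, and those 3 were among them. They are printed because one acetylated stretch carries the whole family, with the seed in capitals and strands grouped by seed.
miR-291a-3p: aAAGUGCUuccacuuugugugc
miR-294-3p: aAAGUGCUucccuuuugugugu
miR-295-3p: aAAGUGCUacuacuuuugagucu
miR-291b-3p: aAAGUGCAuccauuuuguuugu
miR-290a-3p: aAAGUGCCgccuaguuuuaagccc
miR-290a-5p: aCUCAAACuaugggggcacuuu
miR-292a-5p: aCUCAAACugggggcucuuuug
miR-293-5p: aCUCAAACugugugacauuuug
The first 3 share 1 seed, and miR-291b-3p and miR-290a-3p carry the seeds AAGUGCA and AAGUGCC. The 3 strands at the end share another seed. All hairpins of the cluster lay under a single H3K27ac peak of 6.02 kb and 29-fold (chr7:3217764-3223782), next to a peak of 19.3 kb and 48.3-fold that alone made up 61.7% of the region's score. A single H3K4me3 peak covered the cluster in each experiment (96.9-fold in the original and 82.3-fold in the rescue experiment), and no SUZ12 peak of any clone touched it. A SUZ12 peak of clone 442 (5.58-fold) lay elsewhere in the region.

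MicroRNA genes as a class were at members about as often as protein-coding genes. Of 1169 microRNA genes, 62 (5.30%, 95% CI 4.16–6.74) overlapped or ended within 25 kb of a member, beside 1113 of 21887 protein-coding genes (5.09%), the background for the gene lists below.

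Genes were assigned to a member when the gene body overlapped it or a gene end lay within 25 kb. Of 20 core pluripotency factors, 14 were at a member (70%, 95% CI 48.1–85.5). They were Sall1 (rank 5), Nanog (7), Zfp281 (13), Sox2 (25), Klf5 (28), Mycn (46), Klf2 (49), Esrrb (70), Zfp42 (72), Myc (83), Pou5f1 (112), Tbx3 (163), Sall4 (213) and Prdm14 (217). The 14 factors lay in 14 separate regions, and each gene body overlapped its region. Tfcp2l1 and Utf1, the next of the list, reached ranks 583 and 752, whereas Nr5a2, Klf4, Nr0b1 and Gbx2 reached 1514, 3718, 7663 and 8903. Klf4, one of the reprogramming factors, thus neither overlapped a member nor ended within 25 kb of one, in contrast to its relatives Klf2 and Klf5. The ranks cover only regions inside this window, so a member farther from Klf4 would be missed. With a wider window for gene ends, 15 core factors were at members in place of 14, and the added gene was not identified.

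Of 20 further pluripotency-associated genes, 12 were at a member (60%, 95% CI 38.7–78.1). They included Dppa3 and Gdf3 in the Nanog region, Jarid2 (rank 19), the DNA demethylases Tet2 (79) and Tet1 (125), Dppa5a (90), the adhesion gene Cdh1 (99), the Nodal coreceptor Tdgf1 (113), Trim28 (168), Fgf4 (198) and Fbxo15 (228). For signaling, 5 of 12 Nodal and Bmp pathway genes were at members (41.7%, 95% CI 19.3–68.0). The ligand Nodal lay at rank 197, the antagonists Lefty1 and Lefty2 shared rank 115, and the intracellular inhibitors Skil and Smad7 lay at ranks 111 and 177. Of 14 genes for Fgf–Erk feedback, 4 were at members (28.6%, 95% CI 11.7–54.6). These were the target gene Etv5 (rank 39), the Erk inhibitors Spry2 (77) and Spry4 (119), and the early response gene Ier2 (137). The LIF receptor gene Lifr (222) and the feedback inhibitor Socs3 (121) were the only genes of 10 on the LIF and Stat3 list. Growth and metabolism genes had 7 of 20 (35.0%, 95% CI 18.1–56.7), with the glucose transporters Slc2a3 (7) and Slc2a1 (84), the chaperones Hsp90ab1 (20) and Hspa8 (74), Eef1a1 (75), Ccnd1 (198) and Ncl (258). Of these, Slc2a3 was counted in the Nanog region, and Ccnd1 ended within 25 kb of the Fgf4 region without overlapping it. Chromatin regulators had 6 of 20 (30%, 95% CI 14.5–51.9), which were Phc1 (29), Cbx7 (31), Mtf2 (93), Eed (123), Kat6b (140) and Kdm4c (290). The Polycomb genes Ezh2, Suz12, Cbx8, Ring1 and Kdm2b of the same list were not at members.

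Genes of other cell types or states were absent or rare. None of 20 germ layer and trophoblast regulators, none of 15 fibroblast genes, none of 14 2-cell-like genes and none of 39 Hox genes was at a member, with upper 95% limits of 16.1%, 20.4%, 21.5% and 8.97%, all above the 5.09% background. Of 13 genes of the formative and primed state, Tcf15 alone was at one (rank 82). Among gene families, ribosomal protein genes had 9 of 82 (11%, 95% CI 5.88–19.6), above the background. Olfactory receptor genes had 4 of 1110 (0.360%, 95% CI 0.140–0.923), below it. The members held stem cell factors and no listed fibroblast or germ layer gene, and nothing in these lists went against the labeled cell type. The limits of the empty lists reach above the background, so these absences cannot decide the cell type.

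**Figure D2:**
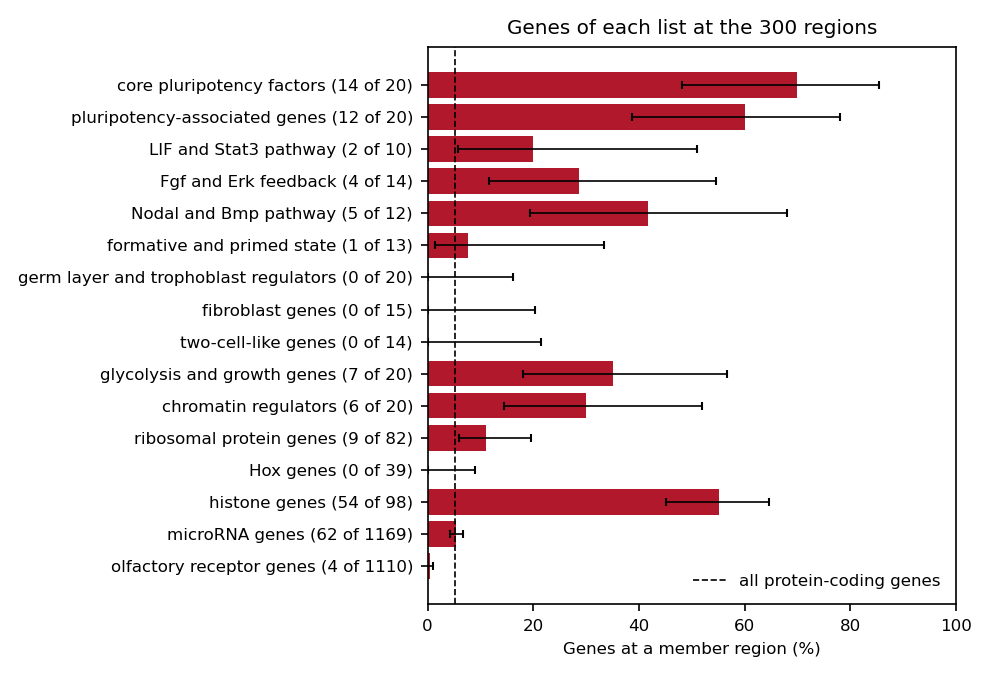
Share of the genes of each list that overlapped or ended within 25 kb of a member (x axis, percent), with counts after the list names, 95% Wilson intervals as error bars and all protein-coding genes (5.09%) as the dashed line. The core pluripotency factors (14 of 20) and the pluripotency-associated genes (12 of 20) have the highest shares, followed by histone genes (54 of 98), and 4 lists have no gene at a member.

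Histone genes had 54 of 98 at members (55.1%, 95% CI 45.2–64.6), but these genes are tandem copies and lay in only 4 regions on 2 chromosomes. Ranks 6, 51 and 69 on chromosome 13 held 16, 13 and 15 of them, and rank 66 on chromosome 3 held 10. Reads from near-identical copies cannot always be placed, which leaves the levels of single histone genes uncertain. From 86.1% to 96.4% of the score of these 4 regions lay in peaks within 2.5 kb of a gene start. The POU octamer ATGCAAAT, on either strand, occurred within 250 bases before 9 of 47 histone gene starts in members (19.1%, 95% CI 10.4–32.5), all of them H2A or H2B genes, and before 14 of 753 other starts in members (1.86%, 95% CI 1.11–3.10). Over all promoters the shares were 14 of 93 for histone genes (15.1%) and 321 of 21170 for other genes (1.52%). The matches of 7 of these genes, and that of Zfp42, are printed with 15 bases on each side, on the strand of the gene, with the octamer in capitals.
H2bc6: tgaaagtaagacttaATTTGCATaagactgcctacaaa
H2bc8: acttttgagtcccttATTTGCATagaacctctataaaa
H2bc3: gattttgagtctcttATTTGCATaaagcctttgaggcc
H2bc14: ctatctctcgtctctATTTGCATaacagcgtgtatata
H2bc18: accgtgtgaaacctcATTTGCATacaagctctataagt
H2ac4: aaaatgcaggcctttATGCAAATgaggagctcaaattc
H2ac6: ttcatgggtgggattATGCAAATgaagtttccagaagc
Zfp42: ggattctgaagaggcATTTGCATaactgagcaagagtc
They lie at chr13:23586015-23586052, chr13:23571326-23571363, chr13:23746629-23746666, chr13:21722004-21722041, chr3:96269637-96269674, chr13:23750944-23750981, chr13:23684067-23684104 and chr8:43307173-43307210 (GRCm38.p6). In the H2B promoters the octamer began between 25 and 90 bases before the start and in the H2A promoters shown 129 and 130 bases before it. H2ac8 and H2bc8 lie on opposite strands and share 1 match. Zfp42, also known as Rex1, was the only core factor among the 8 promoters examined that held the octamer, 186 bases before its start.

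In 11 of the 14 regions at core factors the highest H3K27ac peak was over 2.5 kb from every protein-coding gene start. The strongest peak lay away from starts in 63.0% of members and 76.3% of all stitched regions, so that this count is near the background. In 12 of the 14, over 50% of the score was in such peaks (lowest 36.7% at Sall4, median 86.9%, highest 100% at Esrrb, where no peak of the region was near the start). Most members shared this, as only 73 of 300 had at least 50% of the score near starts. The median share near starts over all members was 20.7%. At Sall1 the highest peak was 47.5-fold and 92.0 kb from its start, where acetylation was 21.1-fold. Zfp281 had 42.5-fold at 51.1 kb and 8.91-fold at its start. Klf5 had 32.7-fold at 28.5 kb and 12.8-fold at its start. The Sox2 region had 39.9-fold over the gene, and the strongest distant peak, 13 kb wide and 32.8-fold, lay 111 kb away. No peak covered the Sox2 start itself, which lay between peaks of 34.5-fold and 39.9-fold. In the Nanog region the peak at the Nanog start was 38.4-fold and 9.67 kb wide, and the highest peak of the region (51.4-fold) was at the neighboring gene Gdf3.

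**Figure D3:**
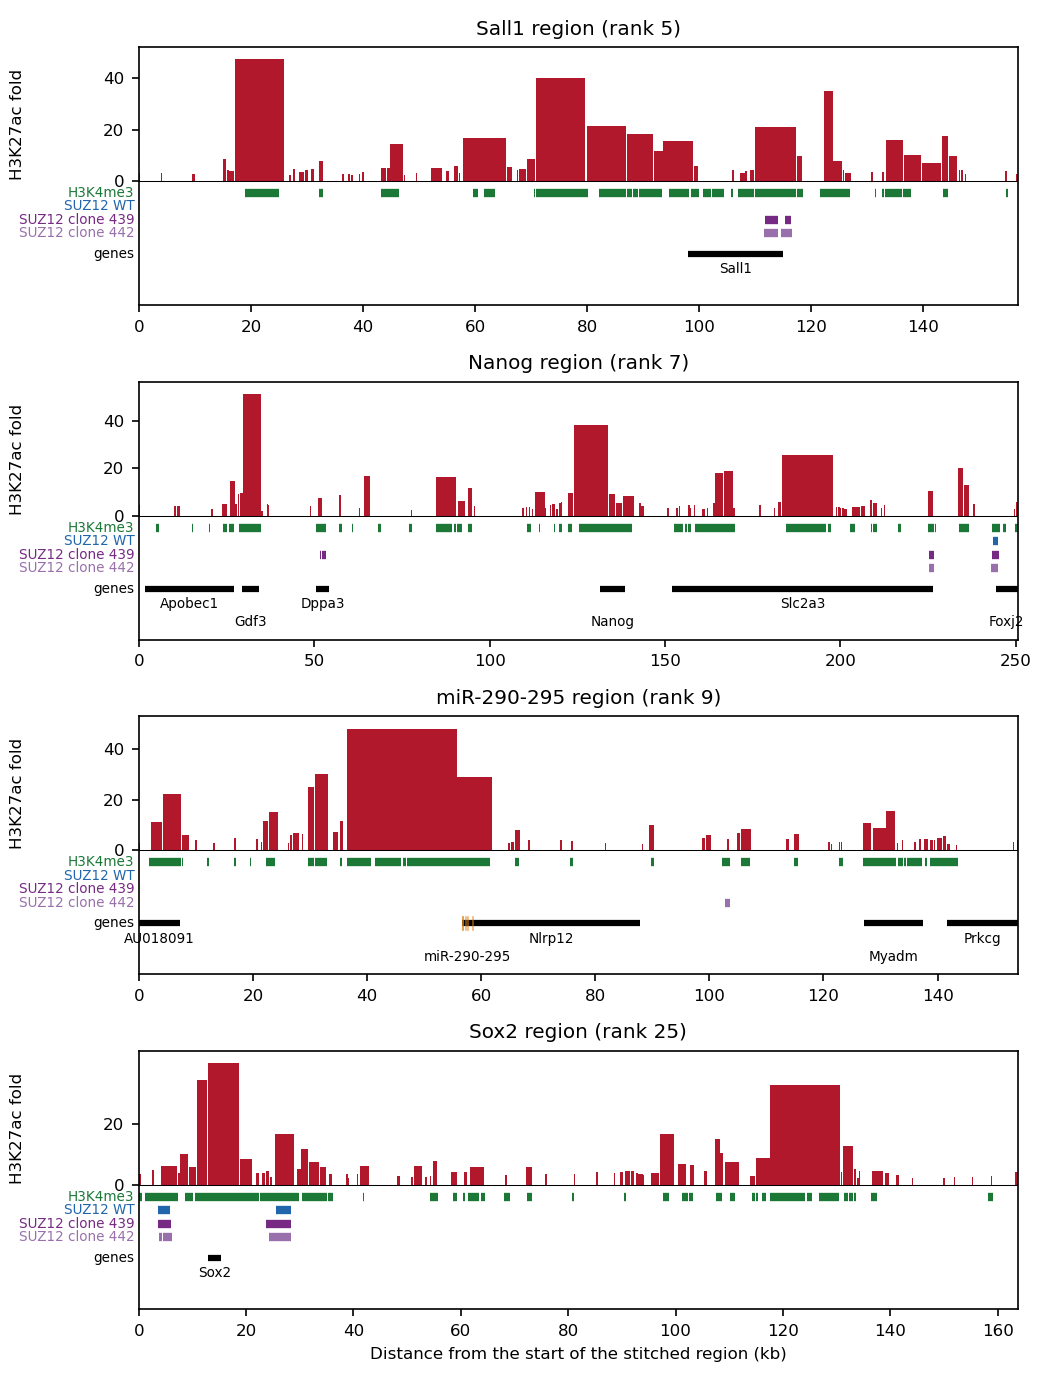
Maps of 4 member regions (x axis, kb from the start of the region), with WT H3K27ac peaks as bars (y axis, fold enrichment over input, bar width equal to peak width), WT H3K4me3 and SUZ12 peaks of 3 clones as colored lines, protein-coding genes in black and the miR-290 hairpins in orange. The Sall1 and Sox2 regions show acetylation of 47.5-fold and 32.8-fold about 100 kb from the gene start, and the miR-290 region has no SUZ12 peak near the microRNAs.

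Promoters of 3 of these genes are printed, 250 bases before the start, to show how different the sequences are that sit at the start of a member's gene. Capitals mark matches to any of 6 motifs searched on both strands, the POU octamer ATGCAAAT, the SOX core CATTGT, the ESRRB element TCAAGGTCA, the KLF element GGGCGTGG, the E-box CACGTG and the STAT3 element TTCCNGGAA, where N is any base.
Nanog: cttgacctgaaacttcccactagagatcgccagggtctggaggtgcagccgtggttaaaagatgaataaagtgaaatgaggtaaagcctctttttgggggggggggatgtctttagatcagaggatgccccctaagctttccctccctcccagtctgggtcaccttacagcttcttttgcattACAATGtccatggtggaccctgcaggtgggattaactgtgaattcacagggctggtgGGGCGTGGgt
Sox2: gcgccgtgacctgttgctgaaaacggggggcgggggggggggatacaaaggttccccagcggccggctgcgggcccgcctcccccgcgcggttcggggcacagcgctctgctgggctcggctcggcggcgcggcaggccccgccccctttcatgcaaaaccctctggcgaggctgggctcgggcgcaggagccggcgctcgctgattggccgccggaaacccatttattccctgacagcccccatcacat
Sall1: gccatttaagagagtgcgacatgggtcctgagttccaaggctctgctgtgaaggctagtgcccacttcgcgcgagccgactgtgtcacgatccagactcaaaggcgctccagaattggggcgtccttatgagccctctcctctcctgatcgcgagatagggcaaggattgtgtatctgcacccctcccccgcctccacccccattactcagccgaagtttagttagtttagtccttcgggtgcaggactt
The Nanog window (chr6:122707239-122707488, plus strand) held 3 CG dinucleotides, a SOX core 67 bases before the start and a KLF element 10 bases before it. The Sox2 window (chr3:34649745-34649994, plus strand) held 27 CG dinucleotides and the Sall1 window (chr8:89044163-89044412, minus strand) 13, and neither held any of the 6 motifs. A match describes letters and not a bound site. H3K4me3 over the start was 56.1-fold at Nanog, 136-fold at Sox2 and 95-fold at Sall1. Across all 800 promoter windows starting in members, the SOX core occurred in 5.50% (95% CI 4.12–7.30), beside 9.35% of all 21263 windows and 7.39% of the 2938 windows that started in an H3K27ac peak elsewhere. The octamer occurred in 2.88% beside 1.58% and 1.16%, the KLF element in 7.12% beside 6.33% and 6.36%, and the E-box in 6.75% beside 6.63% and 8.30%. Of the 23 member windows with the octamer, 9 lay before histone genes. For other genes the octamer share was 1.86% in members (95% CI 1.11–3.10) and 1.52% over all promoters, near the background. The ESRRB element was found in 1 member window and the STAT3 element in 6. Member windows had a median of 14.0 CG dinucleotides, beside 10.0 over all windows and 15.0 over those in H3K27ac peaks elsewhere, and the part of base composition in the motif shares was not tested.

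Of 14405 member peaks, 2238 (15.5%) lay within 2.5 kb of a protein-coding gene start and held 30.5% of the score, whereas 12167 peaks away from starts held 69.5%. Over all stitched regions 19.8% of peaks with 31.4% of the score lay near starts, and in the next 300 regions 18.7% with 29.5%, so that the members' split of the score was near the background. The RefSeq tables used here gave a strand for 79.9% of genes, and for the others either end was counted as a start. In 73 members at least 50% of the score was near gene starts, and in 28 at least 80%, among them the regions at Mcl1, Hsp90ab1, Zfp57 and the 4 histone clusters. A protein-coding gene start lay in 87.3% of members, beside 77.7% of the next 300 and 23.7% of all stitched regions, and a protein-coding gene was overlapped by 92.0%, beside 88.0% and 60.4%. The 38 members without a start included 24 that overlapped no protein-coding gene and 8 that overlapped no RefSeq gene of any kind. Of these 8, the most isolated was chr1:113938304-113970753 (rank 289), 1714 kb from the nearest protein-coding gene, Cntnap5a, with H3K27ac of 30.1-fold and H3K4me3 of 97.4-fold and 92.9-fold in the 2 experiments. Next were chr3:11198172-11228301 (rank 297), 758 kb from Snx16, and chr4:18364542-18409873 (rank 285), 247 kb from Mmp16, with acetylation of 37.7-fold and 54.1-fold.

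H3K4me3, the mark of active promoters that was not used in the choice, was present in every member in both experiments (300 of 300, 95% CI 98.7–100), and in all of the next 300 regions by score, beside 65.0% of all stitched regions. Long regions can hold more peaks, so single peaks were also compared. Of the member peaks 51.2% overlapped H3K4me3 (95% CI 50.4–52.1), beside 50.8% of all H3K27ac peaks, a share near the background. With the H3K4me3 list of the rescue experiment the shares were 57.7% and 55.8%. Taken by score, 93.1% of the members' acetylation was in peaks with H3K4me3, beside 85.8% over all regions, and no member had less than 71.0%. These shares are weighted by the score used in the choice, so tall and wide peaks count most in them. The contrast with all regions is thus not independent of the choice.

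The share rose with the height of the H3K27ac peak in members and elsewhere alike. Of member peaks away from gene starts, 21.3% overlapped H3K4me3 where acetylation was below 3-fold, 33.3% from 3-fold to 5-fold, 71.7% from 5-fold to 10-fold, 96.2% from 10-fold to 20-fold, and all 419 from 20-fold upward. Over all regions the same bins gave 19.1%, 33.0%, 69.8%, 93.2% and 99.3%. The strongest H3K27ac peak overlapped H3K4me3 in all 300 members, although 189 of these peaks (63.0%) lay away from gene starts, at a median of 28.4 kb. The same held for all of the next 300 regions, 185 of them with this peak away from starts, and for 60.2% of all stitched regions. In members, H3K4me3 at the strongest peak was lower away from starts, with a median of 47.8-fold (quartiles 31.8 and 63.3). For the 111 near starts it was 94.4-fold (quartiles 77.1 and 107). In the next 300 regions these medians were 37.8-fold and 97.2-fold, and over all stitched regions, whose strongest peaks are far weaker, 15.2-fold and 87.4-fold. In 13 of the 14 core factor regions the H3K4me3 peak at the factor's own start was higher than at the strongest peak away from starts. Nanog was the exception, with 56.6-fold near its start and 84.6-fold at a peak 58.9 kb away.

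**Figure D4:**
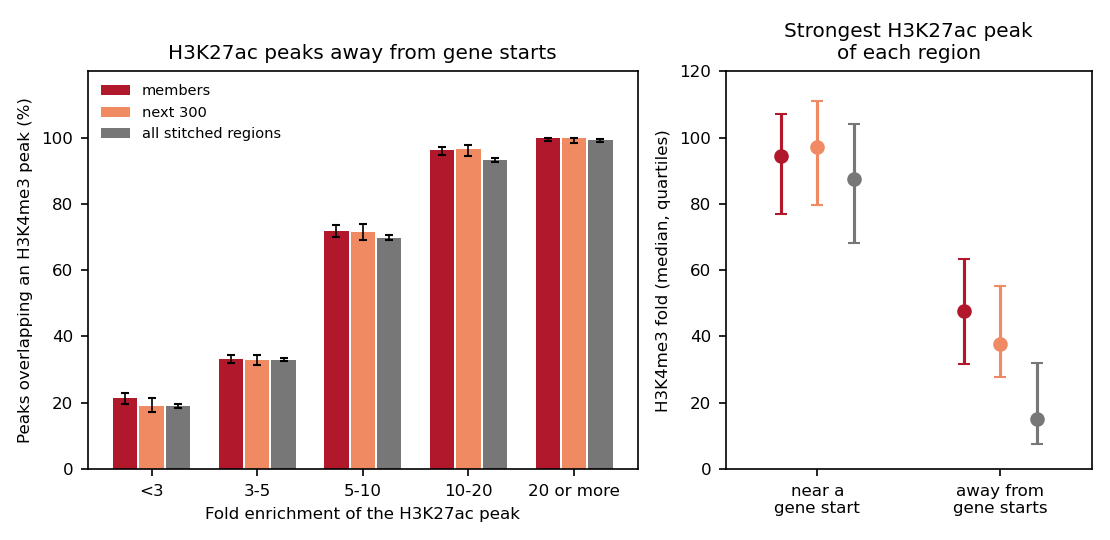
Left, share of H3K27ac peaks away from gene starts that overlapped an H3K4me3 peak (y axis, percent) by fold enrichment of the H3K27ac peak, for members, the next 300 regions and all stitched regions, with 95% Wilson intervals. Right, H3K4me3 fold at the strongest H3K27ac peak of each region (median as point, quartiles as bars) near and away from gene starts. The share rises from 21.3% to 100% with peak height in members and follows the other groups, and H3K4me3 is lower away from starts.

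At the joining distance of 12.5 kb, SUZ12 was found at a minority of members. In WT, 61 of 300 members held a SUZ12 peak (20.3%, 95% CI 16.2–25.2), beside 5.59% of all stitched regions and 11% of the next 300. In clone 439 it was 76 members (25.3%, 95% CI 20.7–30.5) beside 7.61%, and in clone 442 it was 90 members (30%, 95% CI 25.1–35.4) beside 8.28%. These shares moved with the joining distance, to 6%, 8% and 11% at 5 kb and to 41.7%, 49% and 53.7% at 25 kb. The 3 lists were of unequal size, with 6298, 7571 and 7840 peaks. When the 6298 strongest peaks were taken from each list, 20.3%, 20% and 22.7% of members held one, beside 5.59%, 6.25% and 6.61% of all stitched regions. Members are long, and per length the order against all stitched regions was the other way around. Members held 2.5, 3.01 and 4.04 SUZ12 peaks per Mb in WT, 439 and 442, and all stitched regions 6.11, 8.44 and 9.25. The next 300 held 1.98, 3.28 and 3.23, below members in WT and 442, so the low density was not particular to members. Peaks inside members were also weaker than those of the whole list, with a median of 8.16-fold beside 13.4-fold in WT, 7.83-fold beside 12.4-fold in 439 and 7.06-fold beside 11.1-fold in 442. Inside all stitched regions the medians were 10.2-fold, 9.64-fold and 8.84-fold, and inside the next 300 they were 7.45-fold, 7.45-fold and 8.38-fold, below the members in WT and 439.

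**Figure D5:**
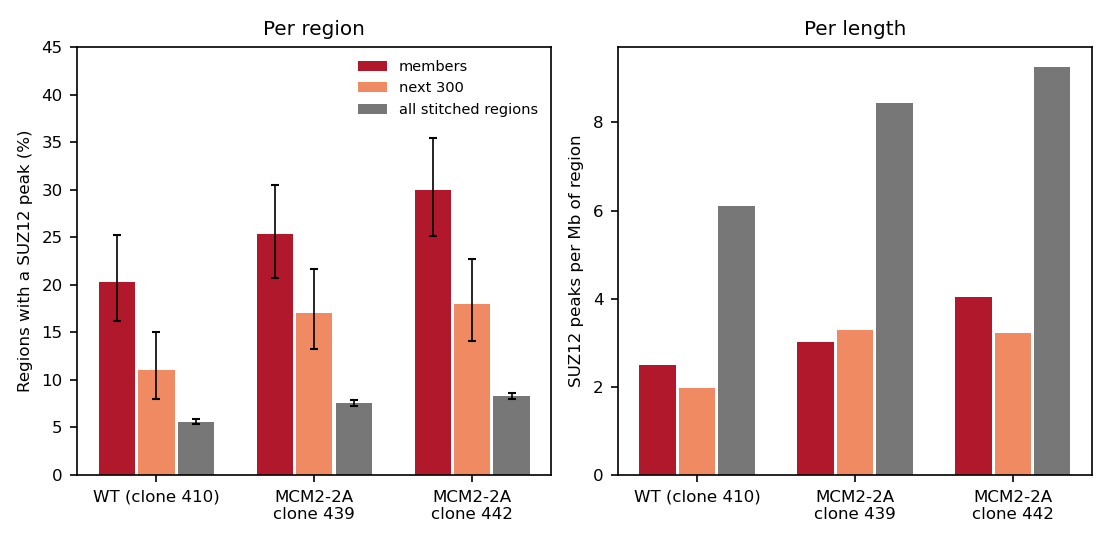
SUZ12 in WT and both MCM2-2A clones for members, the next 300 regions and all stitched regions, as the share of regions with a peak (left, percent, 95% Wilson intervals) and as peaks per Mb of region (right). Members have the highest share per region (20.3%, 25.3% and 30%). Members and the next 300 regions both have fewer peaks per Mb than all stitched regions.

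The 3 lists merged into 161 SUZ12 sites in members, of which 128 (79.5%) overlapped an H3K27ac peak, beside 30.6% of all 8773 sites. Members are built from H3K27ac peaks, so the closer background is the sites inside stitched regions. All stitched regions held 3081 sites, of which 2684 overlapped an H3K27ac peak, a higher share than in members. All 3 clones shared 72 member sites in 54 regions, which is 44.7% of member sites beside 61.2% of all sites. The strongest in WT was at Cgas, in the Eef1a1 region (rank 75), with 64.3-fold in WT, 63.0-fold in 439 and 39.7-fold in 442. The site at Fgf3, beside Fgf4 (rank 198), had 55.8-fold, 57.9-fold and 44.8-fold. Further shared sites lay at Kcng3 (rank 40, 42.0-fold in WT) and Sez6 (rank 260, 34.5-fold in WT).

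Sites listed in 439 and 442 but absent from the WT list numbered 23 in 21 member regions, which is 14.3% (95% CI 9.71–20.5) beside 10.8% of all SUZ12 sites (944 of 8773) and 15.4% of all sites that overlapped an H3K27ac peak. With equal numbers of peaks per list the share was 9.09% in members and 6.70% over all sites. These sites were weak. In 439 they ran from 4.27-fold to 12.4-fold and 22 of 23 lay below the median of the list, and in 442 from 3.65-fold to 10.9-fold and 23 of 23 lay below it. At Sall1, 2 such sites lay within 2.5 kb of the start of the gene (4.41-fold and 4.64-fold in 439, 6.38-fold and 7.95-fold in 442), and of their peaks only that of clone 442 at the second site covered the start itself. In the Nanog region 1 lay at Slc2a3 (10.2-fold and 10.9-fold), and 2 at Dppa3 were found in 439 alone. Others included those at Dennd2a (rank 3), Tns3 (17), Tcf15 (82), Pif1 (102), Tbx3 (163), Gli2 (170), Jund (176), Ndufa13 and Tssk6 (192), Six4 (239), Arc (253), P4htm (275) and Clic4 (282). Those away from gene starts were at ranks 2, 4, 54, 67, 73, 176 and 241. Sites in 442 alone numbered 40 (24.8% beside 12.1% of all sites), in 439 alone 9 (5.59% beside 9.22%) and in WT alone 8 (4.97% beside 2.43%). For these single-list sites the closer background, sites inside stitched regions, was not counted. They were weak too, from 2.35-fold to 7.38-fold in 442 alone (list median 11.1-fold), 2.44-fold to 6.58-fold in 439 alone and 1.80-fold to 6.32-fold in WT alone. Seen by region, 15 members held SUZ12 in both 439 and 442 but not in WT, 19 in 442 alone, 5 in 439 alone and 3 in WT alone. These counts rest on the full lists of unequal size, and the same patterns were not counted over all stitched regions. With equal numbers of peaks per list, 20.3%, 20% and 22.7% of members held SUZ12 in WT, 439 and 442.

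Among core factor regions SUZ12 was listed at 5 of 14 in WT, 6 in 439 and 8 in 442, beside 20.3%, 25.3% and 30% of all members. These counts too come from lists of unequal size. Most core factor regions were also wider than the member median of 106 kb, from 71.5 kb at Pou5f1 to 251 kb at Nanog. Long regions can hold more peaks, and the part of width in these counts was not tested. Of the 14, 6 had none in any list (Zfp281, Klf5, Esrrb, Zfp42, Pou5f1 and Sall4), beside 66.7% of all members. The Sox2 region had SUZ12 on both sides of the gene, at 8.55-fold and 7.65-fold in WT, 8.15-fold and 10.8-fold in 439, and 9.03-fold and 9.43-fold in 442. The Tbx3 region (rank 163) had the most, with 8 peaks in WT, 5 in 439 and 8 in 442. Tbx3 encodes a T-box factor of self-renewal that is also used in limb and heart development. Its widest site, chr5:119665322-119676224 over the gene, was 22.6-fold in WT, not listed in 439 and 8.02-fold in 442, and the site before it was 19.5-fold, 6.10-fold and 9.15-fold. The lists were called separately, so fold values across clones are given side by side without a test.

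H3K27me3 covered 2.16% of the members' length in the original experiment, beside 2.29% for the next 300 and 5.06% for all stitched regions, and 4.4%, 5.51% and 11.5% in the rescue experiment. It was present somewhere in 126 members (42.0%), beside 27.7% of the next 300 and 15.7% of all stitched regions, and took 10% of the length or more in 19 (6.33%, 95% CI 4.09–9.68), beside 6% and 12.3%. With the rescue list it was present in 199 members (66.3%), beside 53.7% and 34.2%, and took 10% of the length or more in 44 (14.7%), beside 16.3% and 28.3%. Among the highest shares were those at Tbx3 (34.0% in the original and 44.2% in the rescue experiment) and in the Sez6 region (23.6% and 26.6%), both of which held SUZ12 in all 3 lists. Of member H3K27ac peaks, 1.96% overlapped H3K27me3, beside 5.30% of all H3K27ac peaks.

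H3K9me3, a mark of heterochromatin and silenced repeats, covered 6.44% of the members' length beside 8% of all stitched regions, and 12.8% beside 15.0% in the rescue experiment. A few members were mostly H3K9me3. It covered over 50% of 5 members in the original and of 12 in the rescue experiment. Such regions were not counted outside the members, so no background share stands beside these counts. The 5 were chr6:136457578-136504417 (rank 210, 82.3%), the Sntg1 region (rank 254, 71.8%), chr3:14977138-15074850 (rank 98, 64.5%), chr11:12986594-13022125 (rank 281, 63.5%) and chr13:5665315-5730607 (rank 164, 60.2%), and their shares in the rescue experiment were 83.7%, 75.6%, 80%, 59.8% and 58.6%. Their highest H3K27ac peaks were from 31.3-fold to 40.9-fold, 4 of the 5 overlapped no protein-coding gene, and none held SUZ12 in any list. SUZ12 was likewise absent from every list in 66.7% of all members. Pooled lists cannot show whether both marks sat on the same copies of the locus.

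Across the members themselves, ranks 1 to 100, 101 to 200 and 201 to 300 had median widths of 147, 112 and 85.4 kb, which the score favors. Measures outside the choice were not tested between these groups. H3K4me3 overlapped 51.3%, 51.4% and 50.9% of peaks, WT SUZ12 was in 18, 23 and 20 of each 100, and H3K27me3 covered 2.02%, 1.94% and 2.71% of the length. An H3K27me3 region lay in 54, 36 and 36 of each 100 and took 10% of the length or more in 3, 6 and 10. A protein-coding gene body was overlapped by 98, 95 and 83 of each 100, and a gene start was held by 95, 91 and 76. In 74 members (24.7%) a single peak held over 50% of the score, in 19, 18 and 37 of the 3 groups, beside 35.3% of the next 300 and 76.8% of all stitched regions. This measure is part of the score that chose the members. A region with a single peak passes the limit by definition, so the contrast describes the choice. By chromosome the highest counts were 30 of 2049 stitched regions on chromosome 1 and 28 of 1570 on chromosome 11. As shares of the stitched regions, chromosomes 11 (1.78%) and 15 (1.66%) stood highest, and chromosome 1 had 1.46%. The lowest were 2 of 767 on the X chromosome and 0 of 7 on the Y chromosome, where 7 regions are too few to compare. Both are single-copy in male cells, and any part of copy number in these counts was not tested.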

How the data were processed

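WT and MCM2-2A embryonic stem cell clones were profiled by ChIP–seq, and 10 pooled peak lists were used. Per the submitters' processing notes, the authors used cutadapt 2.5, BWA 0.7.15 (mm10), Picard 2.20.7 and MACS2 2.1.0. Of the caller settings nothing was given in the sources used here. The deposited lists hold the fold enrichment over input of each peak, a linear ratio, and its −log10 q-value. The deposited score column of the broad lists was not used. Columns without a sample numbered 0.

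H3K27ac peaks up to 12.5 kb apart were joined, scored by width times fold, and the 300 highest regions taken. Any shared base counted as overlap. Gene starts came from RefSeq promoter entries (17492 of 21887 protein-coding genes), and for the other 4395 genes either end was used. A peak within 2.5 kb was near a start, and a gene overlapping a region or ending within 25 kb was at it. The regions named were the 20 highest, those at a gene of 11 lists, and those with a SUZ12 site in 439 and 442 but not WT, the 5 widest, the 5 with the most peaks, the 5 with the highest peak, and ranks 298 to 303. Members and lists were chosen with earlier results of these data known, and sites singled out beyond this rule were chosen after their values were seen. A few regions and genes that this rule names are not reported here. Overlap code was tested on simulated intervals. Python 3.11.15, numpy 2.4.6, pandas 2.3.3, scipy 1.17.1 and matplotlib 3.10.9 were used.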

Additional observations from a re-analysis of the deposited data

How the results depend on the processing

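Of 52 alternative values, 25 were labeled the same and 27 moved, by rules that differed between results. A share of regions, peaks or sites moved when it left its counting interval. A share of length moved with any change in its printed digits. The core factor count was judged by a limit on its fold change and stayed within it in every setting. The values are shares and counts with no direction of their own, and for other joining distances, scoring or left-out peaks the shares over all regions were not recomputed. Among the core factors, 11 to 15 genes were at the regions in place of 14. Joining up to 5 kb or 25 kb, in place of 12.5 kb, gave 6% and 41.7% of regions with WT SUZ12, 8% and 49% with SUZ12 in 439, and 11% and 53.7% in 442, with total lengths of 16.6 and 76.3 Mb. The same settings gave 53.4% and 53.1% of peaks with H3K4me3, 0.835% and 3.93% of length in H3K27me3, and 7.54% and 6.15% in H3K9me3. Leaving out peaks at gene starts gave 10.3%, 13.7% and 17.3% for SUZ12 in WT, 439 and 442, 47.1% for H3K4me3, 1.77% for H3K27me3 and 7.13% for H3K9me3. Scoring by −log10 q gave 2.08% for H3K27me3 and 6.87% for H3K9me3. The rescue lists gave 57.7% for H3K4me3, 4.4% for H3K27me3 and 12.8% for H3K9me3, and requiring H3K4me3 over at least 50% of a peak gave 42.8%. Equal numbers of SUZ12 peaks, which put 439 no longer above the WT share of 20.3%, gave 20% in 439, 22.7% in 442 and 9.09% of sites in both MCM2-2A lists and not WT. The cause of these shifts was not tested beyond the change in length. No paired analysis was possible because the lists pool their replicates, which also left no replicate to leave out.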
